A study of Mus musculus with 6 samples.

Results

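The Runx genes and Cbfb were followed in mouse small-intestinal stem cells that did or did not meet interferon gamma (IFNg), a cytokine released by T and natural killer cells. The rows were chosen by gene symbol, and all 4 of Runx1, Runx2, Runx3 and Cbfb were found among the 23127 genes of the table. They were picked with the IFNg response of these same libraries known, so their values in that comparison are a description and carry no test. RNA was measured in 3 IFNg libraries (IFNg 6, 2 and 10) and 3 untreated libraries (untreated 5, 1 and 9). All cells came from the small intestine of Lgr5-GFP mice on a C57BL/6 background and were sorted for high GFP, which reads out Lgr5, an R-spondin receptor gene active in stem cells at the crypt base. The IFNg cells were kept for 1.5 h with 1 ng/ml IFNg in ENR, a medium named for its EGF, Noggin and R-spondin1. The untreated cells are labelled as having had no treatment, and their titles carry the same 1.5. The treatment protocol text, which names IFNg, is the same for both groups, so the grouping rests on titles and treatment labels. Whether the untreated cells stood in that medium for that time is not stated. The effect of IFNg and any effect of the incubation itself therefore cannot be told apart. Ages are not stated, and the labels do not say whether libraries came from separate animals, so spreads and p-values describe only these samples and may be technical. Libraries 6 and 5 carry the tag GFP1 in their titles and the other 4 carry GFP3, without an explanation of the tags.

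Runx1, Runx2 and Runx3 are transcription factors that bind DNA through a shared Runt domain. Cbfb does not itself contact DNA but joins each of them, strengthens their hold on DNA and protects them from breakdown. In the mouse Runx1 is best known for blood stem cells, Runx2 for bone and Runx3 for T cells and sensory neurons. Runx proteins switch genes on or off depending on partners such as the Groucho/TLE corepressors and the Smads of TGF-beta and BMP signalling. Runx genes are usually read from a distal and a proximal promoter. Cbfb serves all 3 of them.

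Reads in genes numbered 28508762 (untreated 5) to 40224497 (untreated 1), and 19734 to 22371 genes had at least 1 read. Values are scaled counts, that is reads divided by a size factor for the library, and 1 read was worth 0.853 to 1.05 scaled counts. The upper limit behind a count of 0, taken as 3 reads, was 2.56 to 3.16 scaled counts, depending on the library. Floors of this kind cover counting error only and may understate it, because PCR copies of 1 molecule cannot be told from separate molecules. The 2 libraries tagged GFP1 stood apart from the 4 tagged GFP3. By limma with treatment in the fit, 367 genes were higher and 881 lower in GFP1, or 7.75% of 16095 genes tested. Leaving out 1 library at a time left 1 to 568 higher and 48 to 800 lower, with the fewest of both without untreated 1. Results on the Runx genes are therefore given with and without libraries 6 and 5. Libraries 6 and 5 also form 1 of the 3 neighbouring pairs described further on, so tests of the tag, which take the 6 libraries as independent, have p-values that are too small if those pairs hold.

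The sorted cells were checked against markers. The summed level of 16 stem cell and epithelial markers was 599701 to 840056 scaled counts in IFNg libraries and 625182 to 981500 in untreated libraries. Of these 16 markers 7 had a log2 difference (IFNg minus untreated) above 0 and 9 below. None passed limma or edgeR, and 4 were higher at an unadjusted limma p below 0.05 (25%, beside 8.46% of all tested genes). DESeq2 called 2 of the 16 higher (Epcam and Cdx2), beside 2.84% of all tested genes. Epcam, an epithelial adhesion protein, averaged 45142 ± 27010.2 scaled counts in IFNg libraries and 12257 ± 6217 in untreated libraries (SD, n = 3 each). Its groups overlapped, with 19346 in IFNg 6 and 19431 in untreated 5. Those of Cdx2 did not, at 862 ± 345 in IFNg libraries and 252 ± 166 in untreated libraries (SD, n = 3 each). The other epithelial genes of the list, Cdh1, Krt8, Krt18 and Vil1, had log2 differences of -0.34, -0.32, -0.43 and -0.17. Lgr5 had one of -0.35. The stem cell gene Olfm4 averaged 233548 ± 7644 in IFNg libraries and 249441 ± 25867 in untreated libraries (SD, n = 3 each). Besides Epcam and Cdx2, the markers with a log2 difference above 0 were Ascl2, Smoc2, Cdca7, Rgmb and Sox9. Smoc2 averaged 21417 ± 8213 in IFNg libraries and 9741 ± 4113 in untreated libraries (SD, n = 3 each). Ascl2 averaged 686 ± 158 in IFNg libraries and 358 ± 297 in untreated libraries (SD, n = 3 each). The groups overlapped for both Smoc2 and Ascl2. Paneth cells share the crypt base, and the summed level of 8 Paneth markers was 25159 to 201546 in IFNg libraries and 102873 to 359024 in untreated libraries. All 8 had a log2 difference below 0, with a median of -0.98, though no Paneth marker was called by any of the 3 tools, and none had an unadjusted p under 0.05 in limma.

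Runx1, the Runx protein of blood stem cells, was the member that stood highest over its untreated level. It had 1854, 2949 and 4829 scaled counts in IFNg 6, 2 and 10, against 440.3, 371 and 372 in untreated 5, 1 and 9. Every IFNg library lay above every untreated library, and the lowest IFNg library was 4.21 times the highest untreated one. The untreated libraries lay close together, while the IFNg libraries were spread widely, with IFNg 10 the highest and IFNg 6 the lowest. The means were 3211 ± 1505 in IFNg libraries and 394 ± 39.9 in untreated libraries (SD, n = 3 each), a ratio of 8.14. On the log2(scaled count + 1) scale the difference was 2.92 ± 0.36 (SE, n = 3 each), which ranked 100 of 16095 genes. These values rest on 2174, 3059 and 5504 recovered reads in IFNg 6, 2 and 10 and 418, 431 and 361 reads in untreated 5, 1 and 9.

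Cbfb, the partner that all Runx proteins share, was also higher with IFNg, by less. It had 1909.5, 2516 and 5018 scaled counts in IFNg 6, 2 and 10, against 1605, 1019 and 915 in untreated 5, 1 and 9. The groups did not overlap, but the gap was narrow, because IFNg 6 was only 1.19 times untreated 5. As for Runx1, IFNg 10 was the highest library and IFNg 6 the lowest of its group. Cbfb averaged 3148 ± 1648 scaled counts in IFNg libraries and 1179.5 ± 372.5 in untreated libraries (SD, n = 3 each), a ratio of 2.67. Its log2 difference was 1.34 ± 0.40 (SE, n = 3 each) and ranked 997 of 16095 genes.

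**Figure D1:**
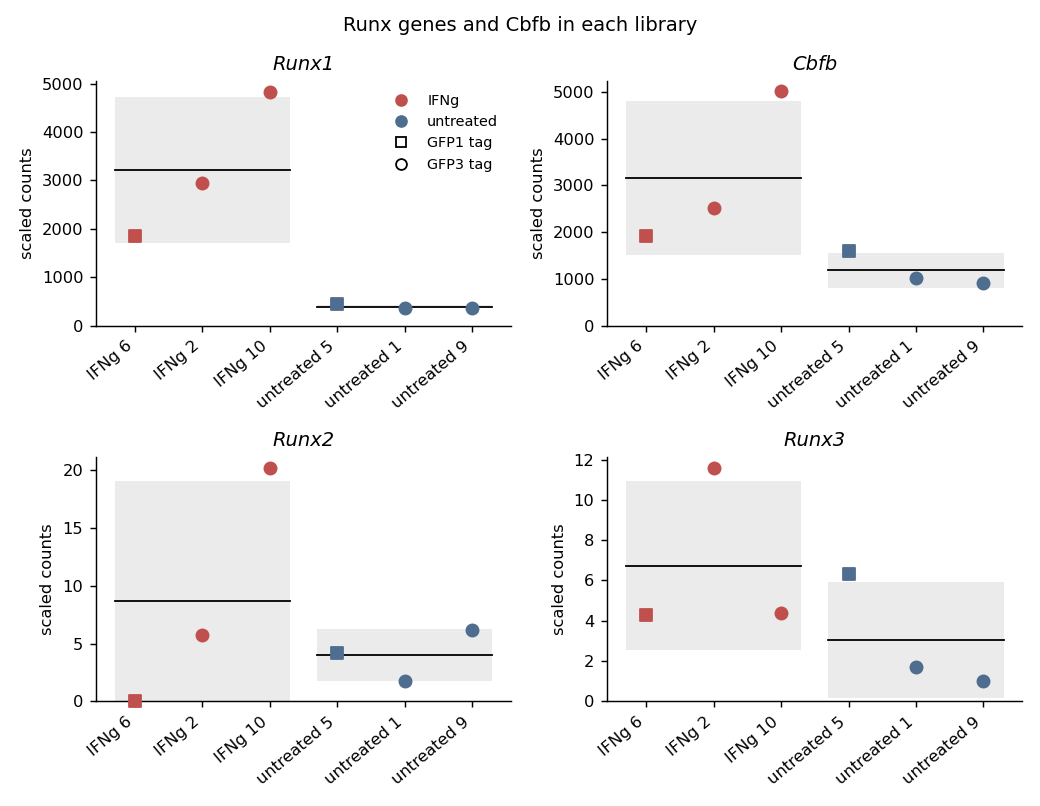
Scaled counts (linear y axis) of Runx1, Cbfb, Runx2 and Runx3 in each of 3 IFNg libraries (red) and 3 untreated libraries (blue). Squares are libraries tagged GFP1 and circles those tagged GFP3, lines are group means and shaded bands 1 SD, drawn no lower than 0. All IFNg points lie above all untreated points for Runx1 and Cbfb, and the groups overlap for Runx2 and Runx3.

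The size of both differences depended on the library. Libraries whose end numbers are neighbours and whose tags match (6 with 5, 2 with 1, 10 with 9) deviated together across genes. Within them Runx1 was 4.21, 7.95 and 13.0 times as high in IFNg 6, 2 and 10 as in untreated 5, 1 and 9. Cbfb was 1.19, 2.47 and 5.49 times as high in the same comparisons. For both genes the pair tagged GFP1 gave the smallest ratio and the pair 10 and 9 the largest. Without libraries 6 and 5 the ratio of means was 10.5 for Runx1 and 3.90 for Cbfb. Without IFNg 10 it was 6.09 for Runx1 and 1.88 for Cbfb. In bulk RNA, fewer cells of a type and less RNA per cell cannot be told apart.

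The call made for each gene by the fit over all 16095 genes is given for completeness, since this contrast chose the members. Of the 4 genes, 2 (Runx1 and Cbfb) passed the filter of a mean of 10 scaled counts. The IFNg libraries were all above the untreated libraries for both, as they were for 8.13% of all tested genes. With limma, 1 of the 2 was called higher (Runx1), as were 0.416% of all tested genes. With DESeq2 on the recovered reads both were called, against a background of 2.84%, and so they were in the GFP3 libraries alone, against 8.27%. Neither was called without untreated 1, where 0.311% of genes were, or without untreated 9, where 0.292% were.

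Other cell types in the sort were followed beside Runx1, since blood cells can carry it. The summed level of 15 T, NK and intraepithelial lymphocyte markers was 244 to 326 scaled counts in IFNg libraries and 152 to 277 in untreated libraries. Of these 15 genes 3 passed the filter (Ptprc, Lck and Cd247), and their median log2 difference was 0.65. Ptprc, the pan-leukocyte phosphatase CD45, had 11.1, 35.7 and 41.2 scaled counts in IFNg 6, 2 and 10, against 33.7, 20.6 and 26.8 in untreated 5, 1 and 9. Lck, a T cell kinase, averaged 188 ± 55.9 scaled counts in IFNg libraries and 118 ± 26.8 in untreated libraries (SD, n = 3 each), and its groups overlapped. Cd247, the zeta chain of the T cell receptor complex, had 38.4, 39.5 and 41.2 in IFNg 6, 2 and 10, against 4.21, 18.9 and 38.1 in untreated 5, 1 and 9, without overlap. Cd3e, another chain of that complex, was near the floor in most libraries, with 0, 10.6 and 0.877 scaled counts in IFNg 6, 2 and 10 and 1.05, 0 and 6.18 in untreated 5, 1 and 9. B and plasma cell markers summed to 154 to 897 in IFNg libraries and 90.6 to 170 in untreated libraries, with the high value in IFNg 2. Of the 6 tested among them 5 had a log2 difference above 0, and Ms4a1, the B cell protein CD20, had 71.6, 34.7 and 43.0 scaled counts in IFNg 6, 2 and 10, against 27.4, 22.4 and 19.6 in untreated 5, 1 and 9, without overlap. The other of the 6, Ighm, had the largest absolute log2 difference, at -1.64. It averaged 7.70 ± 5.90 scaled counts in IFNg libraries and 23.3 ± 12.2 in untreated libraries (SD, n = 3 each), with overlap. Myeloid and mast cell markers summed to 2299 to 5280 in IFNg libraries and 2562 to 5970 in untreated libraries. Most of that sum was Kit, with 827 to 3492 in IFNg libraries and 1230.4 to 3974 in untreated libraries, and Cd14, while the macrophage marker Csf1r had 2.89 to 9.65 in IFNg libraries and 0.860 to 36.9 in untreated libraries. Fibroblast, muscle and bone markers summed to 71.6 to 304 and endothelial and glial markers to 75.1 to 87.7 in IFNg libraries. In untreated libraries those sums were 123 to 556 and 54.8 to 101. No listed marker present in the table was at 0 in all 6 libraries, and no marker passed limma or edgeR in the IFNg comparison. DESeq2 called none beyond Epcam and Cdx2. The part of other cell types in the Runx1 and Cbfb values was not tested. Among IFNg libraries the Paneth, myeloid and fibroblast sums were lowest in IFNg 6 and highest in IFNg 10, as were Runx1 and Cbfb. The other sums did not follow that order, and the T, NK and intraepithelial lymphocyte sum was lowest in IFNg 10, at 244. Among untreated libraries the Paneth, myeloid and fibroblast sums were lowest in untreated 5 and highest in untreated 9. Runx1 and Cbfb were instead highest in untreated 5.

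**Figure D2:**
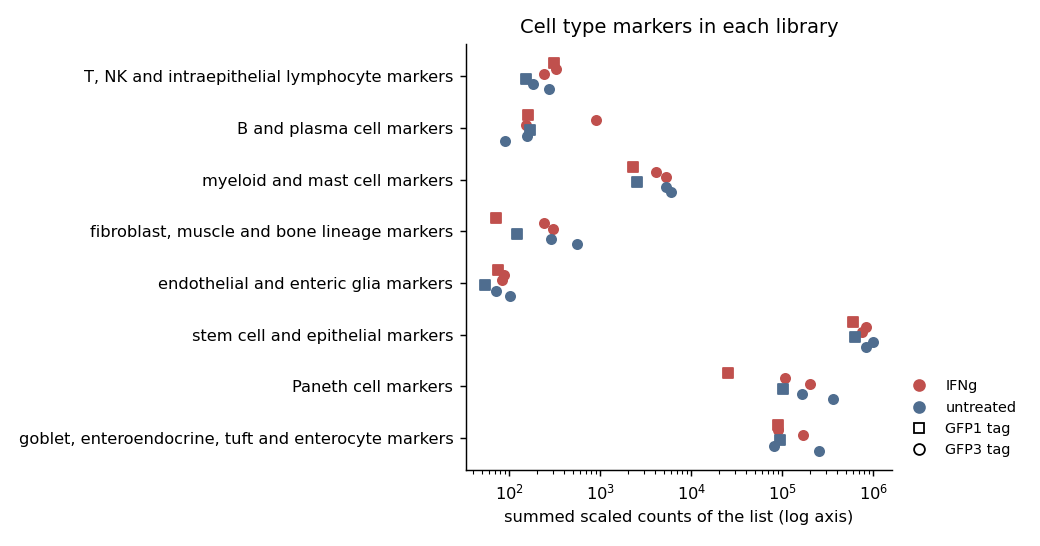
Summed scaled counts (log x axis) of 8 lists of cell type markers in each IFNg library (red) and untreated library (blue), with squares for the tag GFP1 and circles for GFP3. IFNg and untreated points overlap in every list, and the B and plasma cell sum stands out in 1 IFNg library, at 897.

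Runx2 and Runx3 were both near the detection floor. Runx2, which directs bone formation, had 0, 5.78 and 20.2 scaled counts in IFNg 6, 2 and 10, against 4.21, 1.72 and 6.18 in untreated 5, 1 and 9. These rest on 0, 6 and 23 reads in IFNg 6, 2 and 10 and 4, 2 and 6 reads in untreated 5, 1 and 9. The groups overlapped, and the highest value came from IFNg 10 alone. The log2 difference of 0.17 changed sign without IFNg 10 (-0.84), without untreated 1 (-0.22) and without IFNg 2 (-0.02), and without libraries 6 and 5 it was 1.44. Runx3, a T cell and sensory neuron factor, had 4.26, 11.6 and 4.39 scaled counts in IFNg 6, 2 and 10, against 6.32, 1.72 and 1.03 in untreated 5, 1 and 9. Its groups overlapped through untreated 5, which stood above IFNg 6 and 10. The libraries other than 6 and 5 held 12 and 5 Runx3 reads in IFNg 2 and 10 and 2 and 1 in untreated 1 and 9. Over 3 libraries each, Runx2 had 29 reads with IFNg and 12 untreated, and Runx3 had 22 reads with IFNg and 9 untreated. At these read numbers neither gene's groups were separated over all 6 libraries.

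Levels of different genes were compared per kilobase of exon, using the merged exon lengths of GENCODE M21 (12.025 kb for Runx1, 8.837 kb for Runx2, 5.003 kb for Runx3 and 3.48 kb for Cbfb). Cbfb had the highest level, at 905 ± 473 scaled counts per kb in IFNg libraries and 339 ± 107 in untreated libraries (SD, n = 3 each). Runx1 followed at 267 ± 125 in IFNg libraries and 32.8 ± 3.32 in untreated libraries. Then came Runx3 at 1.35 ± 0.836 with IFNg and 0.604 ± 0.575 untreated, and Runx2 at 0.979 ± 1.18 with IFNg and 0.457 ± 0.253 untreated. Runx3 and Runx2 did not differ beyond their spread in either group, while Cbfb lay above Runx1, and Runx1 above the other Runx genes, in all 6 libraries. Per kilobase, Runx1 stood at percentile 65.6 of tested genes with IFNg and 31.2 untreated, and Cbfb at 86.5 with IFNg and 71.4 untreated. Merged exons include every annotated isoform, so a gene read mostly as a short isoform is understated on this scale.

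The balance between the Runx1 transcript and that of its partner differed between the groups. Runx1 per kilobase was 0.281, 0.339 and 0.279 of Cbfb per kilobase in IFNg 6, 2 and 10, against 0.0794, 0.105 and 0.118 in untreated 5, 1 and 9. The groups did not overlap, and Cbfb remained the more abundant of the pair per kilobase in every library. The IFNg ratios were closer to each other than the levels of either gene were.

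**Figure D3:**
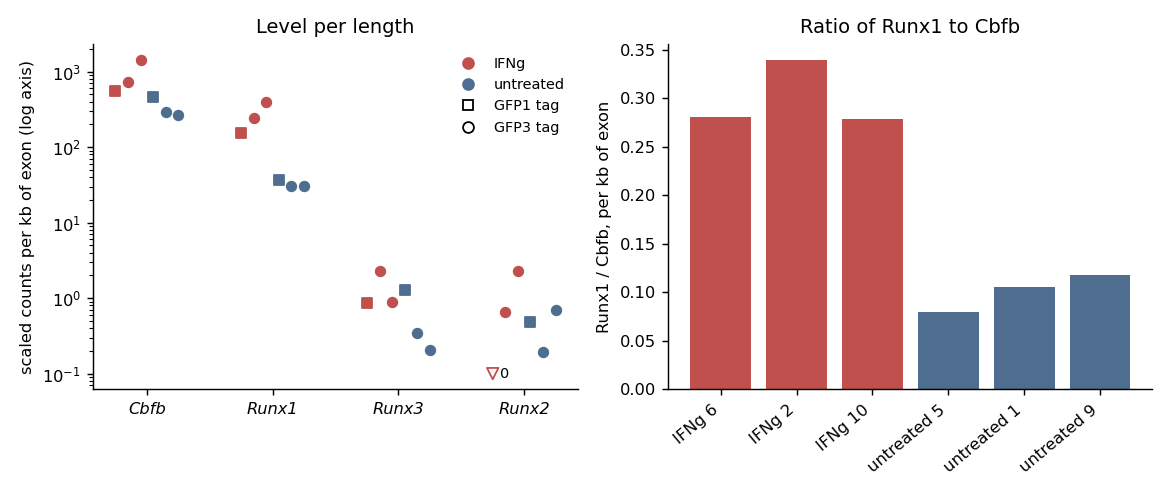
Left, scaled counts per kb of merged exon (log y axis) of each gene in each IFNg library (red) and untreated library (blue), with squares for the tag GFP1, circles for GFP3 and an open triangle for a value of 0. Right, Runx1 divided by Cbfb on the same per-kilobase scale, 1 bar for each library. Cbfb and Runx1 lie well above Runx3 and Runx2, and the ratio is 0.279 to 0.339 in IFNg libraries and 0.0794 to 0.118 in untreated libraries.

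The GFP1 tag gave a comparison that the choice of genes had not used, since each treatment group held 1 library tagged GFP1 and 2 tagged GFP3. Runx1 averaged 1147 scaled counts in GFP1 and 2130.3 in GFP3, and Cbfb 1757 in GFP1 and 2367 in GFP3. With treatment in the fit, Runx1 differed by -0.39 ± 0.34 on the log2 scale (GFP1 minus GFP3, SE, n = 2 and 4, 95% interval -1.17 to 0.39, limma adjusted p = 0.499). Cbfb differed by -0.08 ± 0.41 (SE, n = 2 and 4, 95% interval -1.02 to 0.86, limma adjusted p = 0.922). Neither gene passed, against the 7.75% of genes that did, but the intervals still allow more than 1 log2 unit lower in GFP1. Without IFNg 6 the differences were 0.25 for Runx1 and 0.73 for Cbfb, and without IFNg 10 that of Cbfb was 0.25. Over the alternatives run, limma, edgeR or DESeq2 adjusted p was 0.141 to 0.805 for Runx1 and 0.231 to 0.977 for Cbfb.

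In the mouse genome (GRCm38, the mm10 build, GENCODE M21), Runx1 lies on the minus strand at chr16:92601466-92826149 and Cbfb on the plus strand at chr8:105170674-105217989. Runx2 lies on the minus strand at chr17:44495987-44814797 and Runx3 on the plus strand at chr4:135120652-135177990. The antisense gene Gm26626 shares 106 exon bases with Runx1 and was not analysed here. Runx2os1, on the strand opposite Runx2, shares 519 exon bases with it and had 0.853, 1.93 and 4.39 scaled counts in IFNg 6, 2 and 10, against 0, 0.860 and 5.15 in untreated 5, 1 and 9. The library chemistry does not mark strand, so reads in those shared bases cannot be assigned to either gene. Supt3 lies across Runx2 on the other strand without shared exon bases, and had 411, 501 and 305 scaled counts in IFNg 6, 2 and 10 and 464, 422 and 372 in untreated 5, 1 and 9. Inside the Cbfb gene and outside its exons lies the small nuclear RNA Gm22063, with 16.2, 0 and 4.39 scaled counts in IFNg 6, 2 and 10 and 26.3, 0 and 18.5 in untreated 5, 1 and 9.

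The start sites of the Runx genes share an element that Cbfb lacks. RefSeq (GRCm38.p6) windows running from 250 bases before to 50 bases after each listed start covered all 4 genes in 6 windows, with a distal and a proximal start for Runx1 and Runx3. The Runx motif TGTGGT was searched on both strands, as was a pair of its reverse complements (ACCACA, any 2 bases, ACCACA), whose matches also count as matches of the single motif. The pair was found in 7 of 32851 windows (0.0213%), those of Runx1, Runx2, Runx3, Olfr24, Gm12236, Gm15462 and Gm16225. It began at base 29 of the Runx1 distal start and base 24 of the Runx2 start, counting the start itself as base 1, and 134 bases before the Runx3 distal start. The sites below, 30 bases each, are shown because the 14 letters in capitals are the same in all 3 genes.
Runx1 distal start, chr16:92826025-92826054, minus strand: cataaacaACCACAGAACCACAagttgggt
Runx2 start, chr17:44814583-44814612, minus strand: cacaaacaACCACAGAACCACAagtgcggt
Runx3 distal start, chr4:135120503-135120532, plus strand: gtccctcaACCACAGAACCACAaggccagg
A single TGTGGT was far more common, in 16.8% of all windows. Neither the proximal windows of Runx1 and Runx3 nor the Cbfb window held it. A match describes the letters and shows no binding.

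Runx1 and Cbfb were the members that were higher with IFNg. Their 250 bases before each start are printed because both were searched for the interferon motifs GAS (TTCNNNGAA) and the ISRE core (GAAA, any 2 bases, GAAA), on both strands. The capitals mark CCAAT boxes on either strand.
Runx1 distal promoter, chr16:92826075-92826324, minus strand: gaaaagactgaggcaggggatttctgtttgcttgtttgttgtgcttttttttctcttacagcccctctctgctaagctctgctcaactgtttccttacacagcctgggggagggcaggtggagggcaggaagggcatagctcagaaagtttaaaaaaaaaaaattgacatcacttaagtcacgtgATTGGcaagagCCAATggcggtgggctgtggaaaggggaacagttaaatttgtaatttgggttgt
Runx1 proximal promoter, chr16:92697330-92697579, minus strand: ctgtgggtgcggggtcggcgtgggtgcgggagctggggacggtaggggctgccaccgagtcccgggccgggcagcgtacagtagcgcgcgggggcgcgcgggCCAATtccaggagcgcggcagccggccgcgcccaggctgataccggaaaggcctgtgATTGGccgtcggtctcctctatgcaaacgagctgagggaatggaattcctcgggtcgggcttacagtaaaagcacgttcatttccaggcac
Cbfb promoter, chr8:105170424-105170673, plus strand: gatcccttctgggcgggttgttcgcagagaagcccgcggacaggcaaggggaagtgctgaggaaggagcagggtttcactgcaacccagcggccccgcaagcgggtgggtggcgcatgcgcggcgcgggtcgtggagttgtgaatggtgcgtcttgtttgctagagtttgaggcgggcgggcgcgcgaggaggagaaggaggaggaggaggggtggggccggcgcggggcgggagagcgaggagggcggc
GAS was found in 8.30% and the ISRE core in 3.44% of all windows, and neither was in any of the 6 windows of these genes, which says only that those letters are not in these windows. CCAAT, present in 37.4% of all windows, occurred in both Runx1 windows and in neither strand of the Cbfb window. These bases were 45.6% G or C before the Runx1 distal start, 67.6% before its proximal start and 69.2% before the Cbfb start, against a median of 52.4% over all windows. Which start the Runx1 reads came from was not analysed here.

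Runx proteins act with partners, and 44 genes of cofactors and regulators passed the filter out of 51 listed. None of the 44 passed limma or edgeR, none passed DESeq2, and 1 was higher at an unadjusted limma p below 0.05 (2.27%, beside 8.46% of all tested genes). Their median log2 difference (IFNg minus untreated) was -0.05, beside -0.08 over all tested genes, with 19 above and 25 below 0. Tle1, a Groucho corepressor, had 289.97, 339 and 1667 scaled counts in IFNg 6, 2 and 10, against 429.8, 137 and 129 in untreated 5, 1 and 9. The groups overlapped and IFNg 10 stood alone (log2 difference 1.47, limma adjusted p = 0.613). Tle3, of the same family, had a log2 difference of 0.80 (limma adjusted p = 0.608), and Tle4 one of 0.32 (limma adjusted p = 0.893). Aes, a short Groucho-related protein, had a log2 difference of 1.12 (limma adjusted p = 0.542). Wwp1, a ubiquitin ligase reported to act on Runx2, had one of 0.99 (limma adjusted p = 0.396). In the GFP3 libraries alone Tle3, Aes, Wwp1 and Wwtr1 passed limma, or 9.09% of the list beside 8.27% of all genes.

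The ETO family of corepressors joins RUNX1 in human leukaemia fusions. Its member Cbfa2t2 averaged 941 ± 174 scaled counts in IFNg libraries and 942 ± 314 in untreated libraries (SD, n = 3 each), a log2 difference of 0.03. Cbfa2t3 differed by 0.13 and Runx1t1 by -0.28. The coactivator Yap1 differed by 0.34 (limma adjusted p = 0.914), and Ets1, which binds DNA beside Runx1, by -0.61 (limma adjusted p = 0.913). Ets1 overlapped between groups, with 112, 383 and 1263 scaled counts in IFNg 6, 2 and 10 and 327, 482 and 1215 in untreated 5, 1 and 9.

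Of 40 genes reported in other tissues as Runx targets, 31 were in the table and 18 passed the filter. None of the 18 passed limma or edgeR, and 4 had a higher level at an unadjusted limma p below 0.05 (22.2%, beside 8.46% of all tested genes). DESeq2 called 1 higher (Vegfa, or 5.56% beside 2.84% of all genes). The median log2 difference was 0.63, beside -0.08 over all genes, with 10 above and 8 below 0. Vegfa, the endothelial growth factor, had 811, 2368 and 4047 scaled counts in IFNg 6, 2 and 10, against 867, 702 and 537 in untreated 5, 1 and 9. IFNg 6 lay below untreated 5, so the groups overlapped (log2 difference 1.52, limma adjusted p = 0.378, DESeq2 adjusted p = 0.0344, range over the alternatives 0.00443 to 0.984). Ihh, a hedgehog ligand of the gut epithelium, averaged 121 ± 65.1 scaled counts in IFNg libraries and 37.8 ± 10.7 in untreated libraries (SD, n = 3 each, log2 difference 1.56, limma adjusted p = 0.325). Tnfrsf11b, the decoy receptor osteoprotegerin, averaged 3650 ± 1617 in IFNg libraries and 1418 ± 983 in untreated libraries (SD, n = 3 each, log2 difference 1.58, limma adjusted p = 0.402). In the GFP3 libraries alone Vegfa, Ihh and Myb passed limma, or 16.7% of the list beside 8.27% of all genes. Without untreated 5 Myb passed, or 5.56% of the list, where 366 of 16095 genes were called higher.

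TGF-beta and BMP signalling meets Runx proteins at the Smads, and 37 of 42 listed genes were tested. None passed limma or edgeR, 7 had a higher level at an unadjusted limma p below 0.05 (18.9%, beside 8.46% of all tested genes), and DESeq2 called 3 higher (Smad1, Bmp2 and Inhba, or 8.11% beside 2.84% of all genes). The median log2 difference was 0.23, with 24 above and 13 below 0. The IFNg libraries were all above the untreated libraries for 6 of the 37, beside 8.13% of all tested genes. They were all below for 3, and the share of all genes in that direction is not given here. Among ligands, Inhba, an activin subunit, had 18.8, 45.3 and 66.7 scaled counts in IFNg 6, 2 and 10, against 5.27, 0 and 9.27 in untreated 5, 1 and 9. The groups did not overlap, at levels close to the floor when untreated (log2 difference 3.30, limma adjusted p = 0.312, DESeq2 adjusted p = 0.0473, range over the alternatives 0.0473 to 0.894). Fst, which traps activin, averaged 32.0 ± 13.6 scaled counts in IFNg libraries and 6.87 ± 7.86 in untreated libraries (SD, n = 3 each, log2 difference 2.72, limma adjusted p = 0.436). Bambi, a pseudoreceptor that dampens the pathway, had 620.0, 433 and 535 scaled counts in IFNg 6, 2 and 10, against 394, 84.3 and 94.8 in untreated 5, 1 and 9. Untreated 5 was far above the other untreated libraries, and Bambi had a limma adjusted p of 0.321 with it and 0.0107 without it, in a range of 0.00384 to 0.959 over the alternatives.

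The receptors Tgfbr1 and Tgfbr2 had log2 differences of -0.31 and 0.14 (limma adjusted p = 0.904 and 0.960). Smad3, which carries TGF-beta signals and binds Runx proteins, differed by 0.55 (limma adjusted p = 0.865). Smad1, which carries BMP signals, was singled out after its values were seen. It had 3038, 3625 and 4669 scaled counts in IFNg 6, 2 and 10, against 1514, 1651 and 938 in untreated 5, 1 and 9. The groups did not overlap (log2 difference 1.48 ± 0.31 SE, n = 3 each, limma adjusted p = 0.139, DESeq2 adjusted p = 0.00106, range over the alternatives 0.00106 to 0.604).

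**Figure D4:**
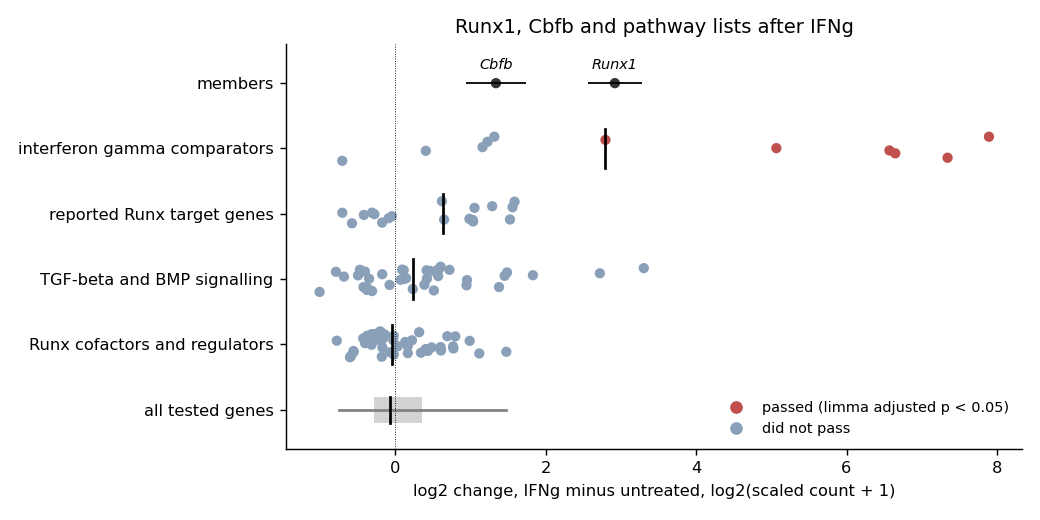
Log2 difference between IFNg and untreated libraries (x axis, log2 of scaled count + 1) for Runx1 and Cbfb with SE bars, and for each tested gene of 4 lists, with the list median as a black line. Red points passed limma at an adjusted p below 0.05, and the bottom row gives the median, the middle 50% (box) and the middle 90% (line) of all tested genes. No gene of the 3 Runx-related lists passed, while 6 of 11 interferon comparators did.

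Runx1 was set beside known IFNg genes of the same libraries. Irf1, a transcription factor induced by IFNg, had a log2 difference of 5.07 and Socs1, a feedback inhibitor of the receptor's kinases, one of 7.34 (limma adjusted p = 0.00124 for Socs1). Socs1 had 1705, 3544 and 6443 scaled counts in IFNg 6, 2 and 10, against 59.0, 10.3 and 12.4 in untreated 5, 1 and 9. As for Runx1 and Cbfb, IFNg 10 was the highest and IFNg 6 the lowest of its group. Irf1 did not share that order, with 55019, 66943 and 56965 scaled counts in IFNg 6, 2 and 10, against 1718, 1726 and 1876 in untreated 5, 1 and 9. Jak2, a kinase of the receptor, had a log2 difference of 1.16 (limma adjusted p = 0.280, DESeq2 adjusted p = 0.00704, range over the alternatives 0.00704 to 0.936). The Runx1 difference of 2.92 thus lay between those of Jak2 and Irf1, and the Cbfb difference of 1.34 was nearer to that of Jak2.

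The genes whose levels followed Runx1 most closely over the 6 libraries were Fam111a (Pearson r = 0.989), Ap1s2 (0.986), Ido1 (0.986), Fscn1 (0.986) and Cdk6 (0.982). Ido1 breaks down tryptophan, Fscn1 bundles actin, Ap1s2 is a clathrin adaptor subunit and Cdk6 is a cell cycle kinase that is also on the cofactor list. The closest to Cbfb were Rrs1 (0.9997), Rab5a (0.999), Lsm14a (0.998), Acbd3 (0.998) and E130309D02Rik (0.997). Rrs1 serves ribosome assembly, Rab5a early endosomes, Lsm14a P-bodies and Acbd3 the Golgi. Runx1 and Cbfb correlated with each other at 0.925, which placed Cbfb at rank 218 among all tested genes for Runx1 and Runx1 at rank 719 for Cbfb. These r values are taken over 6 points that share libraries, depth and treatment, and they only describe likeness of pattern.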

How the data were processed

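The deposited values are the authors' scaled counts (a signal): per the file name, reads per gene divided by DESeq size factors. Per the submitters' processing notes, the build was mm10 and the tools, listed without roles, were STAR 2.5.0a, DESeq 1.22.1, HTSeq 0.5.3 and cutadapt 1.6. Strand setting and annotation are not stated in the sources used. Per the labels' protocols, cDNA came from the SMART-Seq v4 kit for low inputs, which marks neither strand nor molecules.

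Groups came from titles and treatment labels, and no column lacked a sample. The 4 rows that name no gene held 40.3% to 52.5% of each library's values and were left out. Dividing by the smallest step gave whole reads for 100% of 138762 values, within 0.01 read. Genes were filtered at a mean of 10, which left 16095. They were tested two-sided in limma 3.58.1 (R 4.3.3) on log2(scaled count + 1), with trended and robust priors, Benjamini-Hochberg adjustment and a call below 0.05. Low genes have understated changes on this scale. Recovered reads were tested with DESeq2 1.42.0 and with the quasi-likelihood test of edgeR 4.0.16 under TMM. The fits were tested on simulated data. Alternatives were a pseudocount of 8, no filter, TMM scaling, the tag as a covariate, the GFP3 libraries alone, a block for neighbouring numbers and each library left out.

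The members and gene lists were chosen with earlier results of these data known. Named genes were the members, in each pathway list all that passed plus the 3 others with the largest absolute log2 difference, a fixed set of Tle, ETO, Smad and receptor genes, 4 interferon comparators (1 of which is not reported here), the 5 genes most like each tested Runx gene, with the same given for Cbfb, and genes overlapping a member. Wwtr1, Myb, Bmp2, Smad1, Hdac6, Skil, Acvrl1, Gfi1, Tbx21 and the marker genes given by name were named after their values were seen. Neighbouring numbers were taken to pair libraries from the data and not from the labels: deviations from the group means correlated at 0.302 (6 and 5), 0.404 (2 and 1) and 0.252 (10 and 9), and at -0.284 to -0.0308 for other pairs. Deviations cancel out within each group, so positive values for neighbours push the other pairs negative, and the negative values add no separate evidence. The value for 6 and 5 also holds any difference between the tags, which cannot be told apart from pairing there. Exon lengths and positions came from GENCODE M21 and start windows from RefSeq tables. Of 23127 genes, 23006 matched M21 by Ensembl ID.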

Additional observations from a re-analysis of the deposited data

How the results depend on the processing

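In the IFNg comparison, 67 genes were higher and 2 lower. DESeq2 gave 457 higher and 8 lower, the tag as a covariate 108 higher, and the GFP3 libraries alone 1331 higher and 12 lower. The block for the neighbouring pairs gave 74 higher and 1 lower, and changed no call of a Runx gene or list. Leaving out 1 library gave 40 (without IFNg 2) to 366 (without untreated 5) higher and 1 to 3 lower. For GFP1 against GFP3, with 367 higher and 881 lower, edgeR gave 205 and 550, DESeq2 1154 and 1726, and leaving out 1 library 1 to 568 and 48 to 800. No replicate block was fitted there, because the tag does not vary within a pair.

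The GFP1 minus GFP3 log2 difference was -1.02 to 0.25 for Runx1 and -0.90 to 0.73 for Cbfb when 1 library was left out. It turned positive without IFNg 6 (0.25 for Runx1, adjusted p = 0.713, and 0.73 for Cbfb, adjusted p = 0.317) and, for Cbfb, without IFNg 10 (0.25, adjusted p = 0.669), all by limma. The cause was not tested. The IFNg minus untreated difference stayed positive under every alternative run for Runx1 (2.57 to 3.34), Cbfb (0.94 to 1.88) and Runx3 (0.41 to 1.81). For Runx2 it was -0.84 to 1.44, with 0 to 23 reads in a library. Cofactor calls numbered 4 in the GFP3 libraries alone. Target calls numbered 1 with DESeq2, 3 in the GFP3 libraries alone and 0 to 1 with 1 library left out. TGF-beta and BMP calls numbered 3, 4 (10.8% of the list, beside 8.27% of all genes) and 0 to 1 under the same settings.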

Other observations

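In the comparison of tags, 4 of 98 tested genes of the Runx-related lists passed limma (4.08%, beside 7.75% of all tested genes), all lower in GFP1. These p-values take the 6 libraries as independent, and both GFP1 libraries belong to 1 neighbouring pair. Tgfbr2, the type II TGF-beta receptor, had 2249 and 2867 scaled counts in the GFP1 libraries IFNg 6 and untreated 5. The GFP3 libraries had 6461 and 5907 in IFNg 2 and 10 and 5153 and 4326 in untreated 1 and 9. The tags did not overlap (GFP1 minus GFP3 log2 difference -1.09 ± 0.23 SE, n = 2 and 4, limma adjusted p = 0.0357). Skil, a repressor of Smad signalling, differed by -1.17 (limma adjusted p = 0.0360), the deacetylase Hdac6 by -0.97 (limma adjusted p = 0.0434) and the receptor Acvrl1 by -3.90 (limma adjusted p = 0.0339). Acvrl1 had only 1 read in IFNg 6 and 0 in untreated 5. Without untreated 1 none of the 4 passed, nor without IFNg 2 or IFNg 10. Skil and Hdac6 also missed the threshold with edgeR (adjusted p = 0.0520 and 0.0554). Over limma, edgeR and DESeq2 alternatives the adjusted p was 0.00162 to 0.184 for Tgfbr2, 0.000979 to 0.176 for Skil, 0.00150 to 0.135 for Hdac6 and 0.00894 to 0.0994 for Acvrl1. Cell type markers differed between the tags too, beside the 7.75% of all tested genes. By limma 3 of 8 Paneth and 3 of 16 stem cell and epithelial markers passed. So did 4 of 18 goblet, enteroendocrine, tuft and enterocyte, 2 of 4 fibroblast and 1 of 8 myeloid markers, and none of the other marker lists. Lgr5 was among them (GFP1 minus GFP3 log2 difference -1.14, limma adjusted p = 0.0346). What the tags stand for is not given in the labels.

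Among reported Runx targets too low to be tested was Gfi1, a transcriptional repressor that acts in blood cell development. It had 19, 2 and 6 reads in IFNg 6, 2 and 10 and 0, 0 and 2 reads in untreated 5, 1 and 9. Tbx21, the T-bet factor, had 0, 9 and 15 reads in IFNg 6, 2 and 10 and 0, 2 and 1 reads in untreated 5, 1 and 9. Both were picked after their values were seen, and had the highest ratios of means among these low targets. Gzmb and Il2 also had higher means with IFNg. The rest, Spi1, Elane, Cd4, Prf1, Spp1, Sp7, Col10a1, Alpl and Pf4, had lower means with IFNg.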
